A study of Mus musculus with 2 samples.

Results

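B lineage cells were present in a preparation of mouse TCRβ+ cells, in which every cell should carry a T cell receptor. They were taken as the barcodes with 3 or more UMIs of *Cd79a* and 1 or more UMIs of *Cd79b*, the genes of the paired signalling chains of the B cell receptor; a UMI is 1 captured transcript molecule. Barcodes entered this rule when 500 or more genes were detected and mitochondrial transcripts made up no more than 10% of their UMIs. By this rule 480 of 13772 cells (3.49%) were B lineage cells, 48 of 7007 cells of the WT mouse (0.685%, 95% interval 0.506 to 0.907) and 432 of 6765 cells of the DKO-severe mouse (6.39%, 5.81 to 6.99). These shares are the outcome of the selection and are given as a description.

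The mice were 14 weeks old, with 1 mouse per genotype, and spleen was pooled with lymph nodes from cervical and inguinal sites. Both mice carried Foxp3Cre, in which the Cre recombinase is made under the control of *Foxp3*, the lineage gene of regulatory T cells. The DKO-severe mouse (Foxp3-Cre Tet2/3 fl/fl) also carried floxed *Tet2* and *Tet3*, which encode enzymes that oxidize 5-methylcytosine, and was classed as severe by its leukocyte number in spleen and lymph nodes, whereas the Foxp3Cre WT mouse was wild type for both genes. Cells were tagged with hashtag antibodies (hashtag 1 for WT, hashtag 2 for DKO-severe), and transcripts were counted from their 3′ ends on the 10x platform. With 1 mouse per genotype there is no error between animals and no test between the genotypes, and cells are not replicates. Every interval below is an exact 95% interval that covers counting error only.

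B cells are made in the bone marrow, where precursors cut and join their immunoglobulin genes with the RAG1 and RAG2 recombinase. Large precursors pair a new heavy chain with a surrogate light chain, built from VpreB and the *Igll1* product, before a κ or λ light chain is made. Cells that leave the marrow carry IgM, then IgD and CD20 (the product of *Ms4a1*), and present antigen on MHC class II. After antigen contact, cells in germinal centres mutate and switch their antibody genes, and plasma cells secrete large amounts of antibody. Spleen and lymph nodes hold mainly mature B cells.

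The *Rag1*, *Vpreb1* and *Igll1* transcripts set the precursor cells apart here and *Vpreb3*, a relative of the surrogate light chain genes, accompanied them, so the 250 bases before the transcription start of each are shown (RefSeq, GRCm38.p6, 5′ to 3′ on the gene's strand). Capitals mark matches, on either strand, to the E-box CAGGTG (reverse CACCTG), to the octamer ATGCAAAT (reverse ATTTGCAT) and to CCCNNGGG, the core bound by EBF proteins. The windows are chr2:101649533-101649782 (minus strand) for *Rag1*, chr16:16869256-16869505 (minus) for *Vpreb1*, chr16:16863986-16864235 (minus) for *Igll1* and chr10:75948050-75948299 (plus) for *Vpreb3*.
Rag1: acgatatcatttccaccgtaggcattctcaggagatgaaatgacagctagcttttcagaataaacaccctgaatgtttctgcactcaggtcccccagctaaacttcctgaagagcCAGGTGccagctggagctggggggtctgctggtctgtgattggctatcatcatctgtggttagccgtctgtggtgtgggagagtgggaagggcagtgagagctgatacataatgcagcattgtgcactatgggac
Vpreb1: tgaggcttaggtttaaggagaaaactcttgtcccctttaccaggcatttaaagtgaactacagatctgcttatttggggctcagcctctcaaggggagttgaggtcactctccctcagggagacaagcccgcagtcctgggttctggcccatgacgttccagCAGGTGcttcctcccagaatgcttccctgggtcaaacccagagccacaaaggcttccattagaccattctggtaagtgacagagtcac
Igll1: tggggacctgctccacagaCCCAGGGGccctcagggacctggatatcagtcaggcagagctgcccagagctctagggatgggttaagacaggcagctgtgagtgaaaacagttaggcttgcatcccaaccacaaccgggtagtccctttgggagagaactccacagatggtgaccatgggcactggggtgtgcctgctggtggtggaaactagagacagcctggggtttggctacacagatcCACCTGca
Vpreb3: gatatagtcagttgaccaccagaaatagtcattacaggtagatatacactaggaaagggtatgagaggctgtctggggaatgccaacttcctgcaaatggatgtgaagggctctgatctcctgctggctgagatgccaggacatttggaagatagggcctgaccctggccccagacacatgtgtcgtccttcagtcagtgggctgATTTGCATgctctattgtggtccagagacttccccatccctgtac
In the GENCODE vM21 models the *Rag1* and *Igll1* windows lie outside the transcripts of their gene, the *Vpreb3* window lies in an intron of the longer of its 2 transcripts, and the *Vpreb1* window overlaps 1 exon of a longer transcript. The *Rag1*, *Vpreb1* and *Igll1* windows each held the E-box, the *Igll1* window also held CCCNNGGG, and the *Vpreb3* window held the octamer. Of all 32851 windows of this length, 17.2% held the E-box, 1.6% the octamer and 11.8% CCCNNGGG. Of 27 listed B cell identity and precursor genes, 22 matched this table, with 33 windows, of which 13 held the E-box, 1 the octamer and 5 CCCNNGGG. A match is a description of the letters and was not tested for binding.

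B cell genes that the rule did not use were also high in these cells. Against the 6119 DKO-severe T reference cells, which were the cells outside the B lineage with 2 or more UMIs of *Cd3d*, *Cd3e* and *Cd3g*, all 13 listed B cell identity genes other than *Cd79a* and *Cd79b* were higher in CPM, the UMIs of a gene per 1000000 UMIs of the same cells. Of these, 12 were 4-fold or more higher, and over all 2414 genes that passed the filter 5.34% were. That filter asked for 300 or more UMIs in the B lineage cells and set no limit for the T reference. Genes could thus pass it through the cells in which they were high, and the counts are a description. *Bank1*, a B cell scaffold protein, stood at 1588 CPM against 3.54 (log2 ratio 8.81), *Vpreb3* at 484 against 0.320 (10.60) and *Mef2c*, a transcription factor, at 786 against 3.84 (7.68). The 20 genes with the highest ratios also held *Mzb1*, *Ly6d*, *Spib*, *Blnk*, *Siglecg*, *Fcmr*, *Fcer2a*, *Cr2* and *Tnfrsf13c*.

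The 2 matrices shared 0 barcodes, and no B lineage cell had more UMIs of the other mouse's hashtag than of its own. Median UMIs were 10418 in the WT B lineage cells (range 2757 to 33842) against 5687 in all filtered WT cells, and 6757 in the DKO-severe B lineage cells (1059 to 64184) against 8312. A looser rule of 1 UMI of each gene was met by 0.174% of the WT and 0.18% of the DKO-severe T reference cells. The T reference leaves out all B lineage cells, of which 32 in WT and 134 in DKO-severe held 2 or more *Cd3* UMIs. These shares are therefore low by construction. At the edge of the rule, the 10 DKO-severe cells with exactly 3 *Cd79a* UMIs held *Ms4a1* in 40% and *Bank1* in 40%, and the 8 cells left out with 2 *Cd79a* UMIs held each in 62.5%. A further 8 DKO-severe cells with 3 or more *Cd79a* UMIs lacked *Cd79b*, and 87.5% of these held *Ms4a1*. In WT, 3 cells had exactly 3 *Cd79a* UMIs and 0 cells were left out at 2.

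The B lineage cells were mostly mature by their transcripts, and the DKO-severe mouse also held a group of precursors. Cells with *Ms4a1* and none of *Rag1*, *Vpreb1* and *Igll1* were called mature, and cells with 1 or more UMIs of those 3 genes and no *Ms4a1* were called precursor. In DKO-severe, 344 of 432 cells were mature (79.6%, 75.5 to 83.3), 35 were precursors (8.1%, 5.71 to 11.1), 9 held both kinds of transcript (2.08%) and 44 held neither (10.2%, 7.5 to 13.4). In WT, 39 of 48 cells were mature (81.2%, 67.4 to 91.1), 0 were precursors, which allows a share of up to 6.25%, 1 held both (2.08%) and 8 held neither (16.7%, 7.48 to 30.2). The WT limit lies inside the DKO-severe interval, so a difference between the mice in the share of precursors was not detectable with 48 WT cells. A UMI of *Rag1*, *Vpreb1* or *Igll1* was found in 1.36% of the DKO-severe T reference cells (median 8391 UMIs), against 10.2% of the DKO-severe B lineage cells, and *Ms4a1* in 0.719% of the T reference cells. Thinning each cell to 3400 UMIs left 394 DKO-severe and 44 WT B lineage cells. Over 3 random draws, 6.35 to 7.61% of the DKO-severe cells held a precursor gene, with or without *Ms4a1* (10.2% unthinned), and 0 of 44 in WT. In the DKO-severe T reference 0.528 to 0.545% did.

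Among the 35 precursors, *Rag1* (ENSMUSG00000061311) was found in 27 cells, with a lowest, median and highest count of 0, 2 and 8 UMIs. *Igll1* (ENSMUSG00000075370) was found in 14 cells, with up to 23 UMIs, and *Vpreb1* (ENSMUSG00000059305) in 12, with up to 35. Of the 44 DKO-severe B lineage cells with any of the 3 genes, 9 of which also held *Ms4a1*, 32 held 2 or more UMIs of the 3 genes together. The 3 genes chose these cells, so their values are a description. Of genes outside the rule, *Rag2*, the partner of *Rag1*, was found in 9 precursors (up to 4 UMIs), *Vpreb2*, the close copy of *Vpreb1*, in 8 (up to 12) and *Dntt*, the enzyme that adds untemplated bases to heavy chain joints, in 5 (up to 11). Each of these 3 genes had 0 UMIs in the 344 mature cells.

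*Vpreb3* (chr10:75943057-75949657, plus strand, mm10) was present in every precursor, with 4, 19 and 42 UMIs as lowest, median and highest count. In DKO-severe mature cells the counts were 0, 1 and 24, with 236 of 344 cells (68.6%) positive, and 0.311% of the T reference cells held a UMI. The ranges overlapped, but the median precursor lay near the top of the mature range. The level was 2316 CPM in precursors and 276 in mature cells, a log2 ratio of 3.07 (2.92 to 3.21), or 2.69 without the cells that held 2 or more *Cd3* UMIs. *Cd74*, the chaperone of MHC class II, gave the opposite picture, with 0, 0 and 12 UMIs in precursors and 1, 54 and 294 in mature cells.

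**Figure D1:**
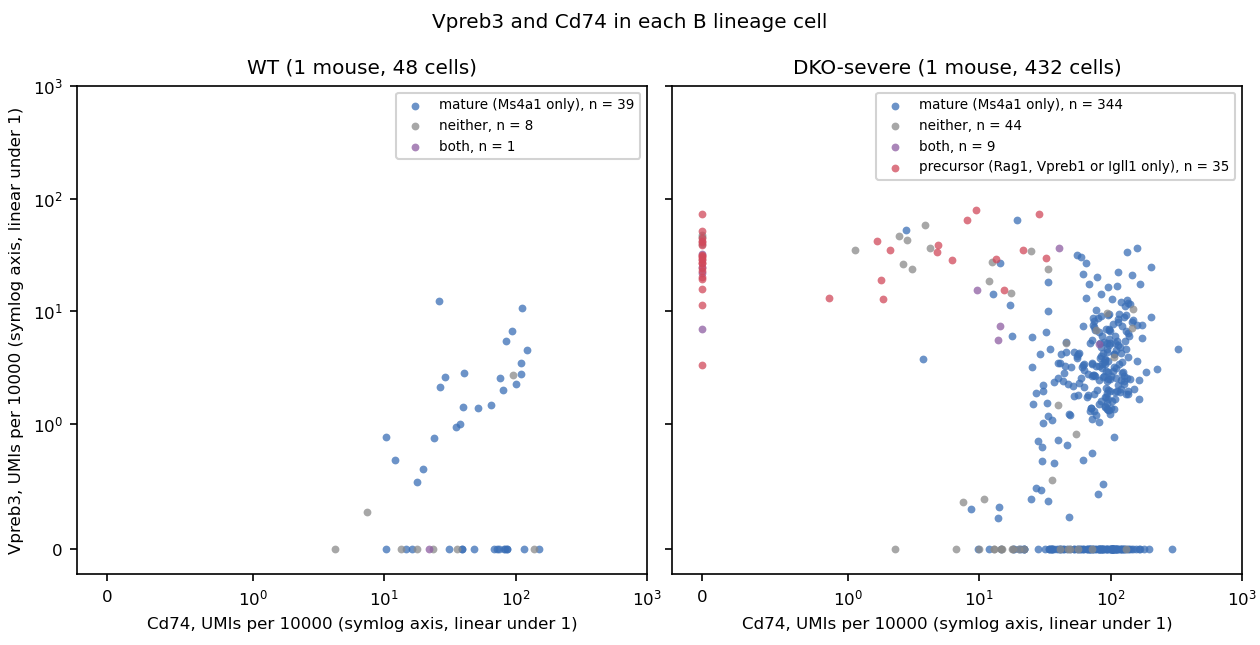
Each point is 1 B lineage cell, with *Cd74* on the x axis and *Vpreb3* on the y axis, both as UMIs per 10000 UMIs of the cell on axes that are linear near 0 and logarithmic above, for the WT and the DKO-severe mouse; colours mark the 4 classes. The 35 DKO-severe precursors gather at high *Vpreb3* and low *Cd74*, whereas the 344 mature cells lie at high *Cd74*.

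Of the 12 listed B cell precursor genes, 12 were higher in precursors than in mature cells of the DKO-severe mouse. This count includes the 3 genes of the rule, whose direction was fixed by the choice of cells. Of all 3558 genes that passed the filter on low counts, 1.66% were 4-fold or more higher; *Sox4* and *Myb* were among them, and passed the filter through the precursors. *Sox4*, a transcription factor of early B cells, had 0, 3 and 12 UMIs in precursors (33 of 35 cells) and 0, 0 and 3 in mature cells (20 of 344), with 498 against 8.83 CPM (log2 ratio 5.82, 5.23 to 6.46). *Myb*, a transcription factor of blood progenitors, was found in 30 of 35 precursors and 28 of 344 mature cells, at 394 against 12.3 CPM (5.0, 4.47 to 5.57). *Erg*, a further factor of blood progenitors, had 39 UMIs in precursors against 2 in mature cells. *Il7r*, the receptor of the cytokine that supports mouse B cell precursors, had 0, 3 and 13 UMIs in precursors (29 of 35 cells) and was positive in 72 of 344 mature cells, at 501 against 132 CPM (1.92, 1.64 to 2.19). T cells also make *Il7r*, and without the cells that held 2 or more *Cd3* UMIs its ratio was 4.44. *Cd93*, a surface marker of immature B cells, stood at 50.1 against 7.57 CPM (2.73) and was found in 12 of 35 against 17 of 344 cells.

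The general B cell identity genes did not move together. Of 15 genes, 7 were higher and 8 lower in precursors, with 1 gene 4-fold or more higher and 4 lower; *Ms4a1* is lower by the choice of cells. The transcription factor gene *Pax5* was 518 against 502 CPM (log2 ratio 0.04, -0.20 to 0.28), within counting error. *Ebf1*, which with *Pax5* sets B cell identity, had 8, 29 and 153 UMIs in precursors and 0, 18 and 99 in mature cells, at 5027 against 2410 CPM (1.06, 0.98 to 1.14). *Cd79a* was 1177 against 1623 CPM (-0.46) and *Cd79b* 899 against 913 (-0.02). *Bank1* was nearly absent from precursors, with 0, 0 and 2 UMIs and 6 positive cells, against 0, 16 and 100 in mature cells, of which 333 were positive (26.7 against 2036 CPM, -6.25, -7.46 to -5.27). *Fcmr*, the IgM Fc receptor, stood at 13.4 against 298 CPM (-4.48) and *Cd22*, an inhibitory co-receptor, at 23.4 against 204 (-3.12).

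Antigen presentation genes were lower in precursors throughout, 13 of 13. The 9 that passed the filter, which they did through the mature cells, were each 4-fold or more lower, as were 2.45% of all genes; the median log2 ratio of all genes was 0.19. *Cd74* was 254 against 6736 CPM (-4.73, -5.07 to -4.40). The class II chain genes *H2-Aa* (80.2 against 2157 CPM, -4.75), *H2-Ab1* (86.9 against 1906, -4.46) and *H2-Eb1* (43.5 against 1872, -5.43) and their activator *Ciita* (13.4 against 185, -3.79) were all lower. *H2-DMb2*, of the peptide editor H2-DM, had 0 UMIs in precursors and 917 in mature cells, which with 0 counted as 3 UMIs is a log2 ratio of -4.85 or lower. That bound of 3 UMIs is used for every sum under 3 below.

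The follicular genes were lower in 7 of 7, and the survival and help receptor genes in 5 of 5. The filter on low counts was passed by 4 follicular and 4 receptor genes, and a gene could pass it through the mature cells alone. Of those, 3 follicular genes and 1 receptor gene were 4-fold or more lower, as were 2.45% of all genes. *Ighd*, which encodes IgD, had 0, 0 and 4 UMIs in precursors (11 of 35 cells) and 0, 4 and 30 in mature cells (283 of 344), at 63.5 against 506 CPM (-2.99). *Cr2*, the complement receptor CD21, had 1 UMI in precursors and 562 in mature cells, *Fcer2a* (CD23) 0 and 294, and *Ccr6*, a homing receptor, 0 and 326. These counts come from 299176 UMIs of all genes in precursors and 3172467 in mature cells. *Tnfrsf13c*, the receptor of the survival factor BAFF, stood at 63.5 against 161 CPM (-1.34). Receptor signalling genes were split, with 2 of 10 higher and 8 lower and none past 4-fold. *Syk*, the kinase that binds phosphorylated CD79 chains, was 856 against 571 CPM (0.58) and *Blnk*, its adaptor, 511 against 420 (0.29), the latter -0.17 without the cells with 2 or more *Cd3* UMIs.

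Cell cycle genes were higher in precursors in 9 of 9, though none reached 4-fold. *Mki67*, a marker of cycling cells, was 334 against 116 CPM (1.53, 1.19 to 1.85; 2.44 without the cells with 2 or more *Cd3* UMIs), *Top2a* 404 against 128 (1.66; 2.53 without them) and *Birc5* 201 against 63.0 (1.67). The *Mki67* level of precursors rests in part on 1 cell, which held 41.0% of their *Mki67* UMIs, against 13.3% in the leading mature cell. A *Mki67* UMI was found in 10 of 35 precursors (28.6%, 14.6 to 46.3), 44 of 344 mature cells (12.8%, 9.45 to 16.8) and 12.9% of the T reference cells. These intervals overlapped, at median depths of 4793 UMIs in precursors and 6698 in mature cells. At 3400 UMIs per cell the shares over 3 random draws were 28.0 to 36.0% of 25 precursors and 7.76 to 9.32% of 322 mature cells, and the intervals did not overlap in 2 of the 3 draws.

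Over all genes outside the rule, the highest ratios after *Sox4* and *Myb* belonged to *Tifa* (515 against 21.1 CPM, 4.61), *Akap12* (418 against 19.9, 4.40), *Atp1b1* (421 against 21.1, 4.32), *Cecr2* (1009 against 55.5, 4.19) and *Eps8* (3.83), followed by *Uhrf1*, *Gm4258* and *Myl4*. *Cecr2*, a chromatin remodelling gene, was found in 100% of precursors and 25.0% of mature cells. *Uhrf1*, which maintains DNA methylation through replication, had a log2 ratio of 3.43. The lowest ratios were those of *Slpi* (-7.81), *Bank1*, *March1* (6.69 against 445 CPM, -5.47), which encodes a ligase that turns over MHC class II, *H2-Eb1*, *Gm31243*, *H2-DMb2*, *Apoe*, *H2-Aa*, *Cd74* and *Setbp1*. The *Slpi* value rests on few cells, since 38.3% of its 7133 UMIs in mature cells came from 1 cell.

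**Figure D2:**
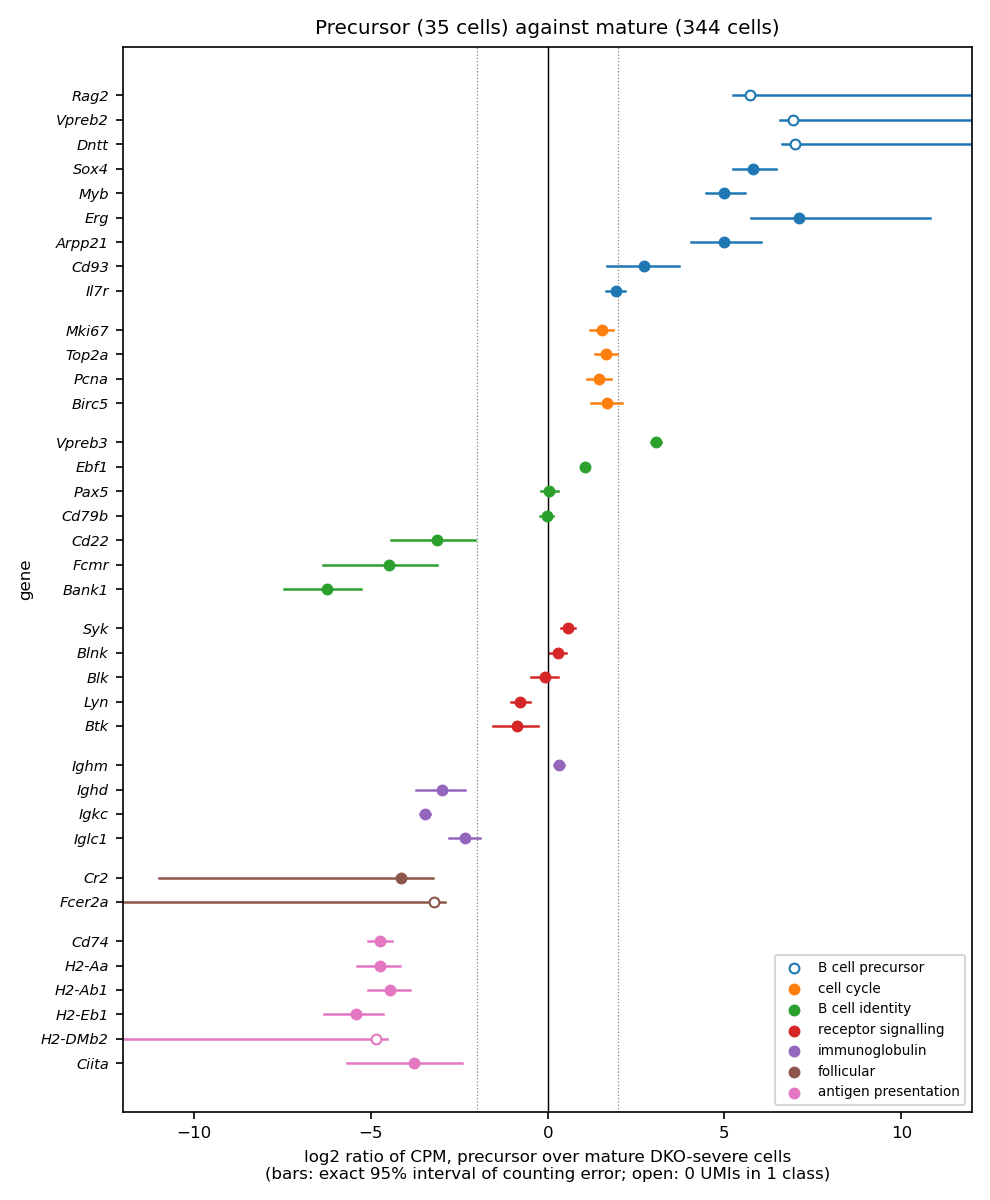
Points are log2 ratios of CPM, 35 precursors over 344 mature cells of the DKO-severe mouse, for listed genes grouped by role, with exact 95% intervals of the counts; open circles mark genes with 0 UMIs in 1 class, for which the value is a bound, and dotted lines mark 4-fold. The precursor genes lie to the right, antigen presentation genes such as *Cd74* (-4.73) to the left, and *Pax5* (0.04) near 0.

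The precursors were themselves of more than 1 kind. Of the 35 cells, 20 (57.1%) held *Rag1* without *Vpreb1* or *Igll1*, 7 held *Rag1* with a surrogate light chain gene, and 8 held a surrogate light chain gene without *Rag1*. The 15 cells with *Vpreb1* or *Igll1* were compared with the other 20, a comparison added after the classes had been seen; median depth was 7698 against 4334 UMIs, and 1.84% of 1852 genes were 4-fold or more higher and 1.35% lower. All 36 *Dntt* UMIs and all 39 *Arpp21* UMIs were in the cells with a surrogate light chain gene. *Erg* was 188 against 35.3 CPM (log2 ratio 2.42). All 9 cell cycle genes were higher, of which 4 passed the filter, with *Mki67* at 431 against 176 (1.29) and *Birc5* at 275 against 79.3 (1.79). Of the *Mki67* UMIs of all 35 precursors, 41.0% were in 1 cell, which held a surrogate light chain gene. Its share of the *Mki67* UMIs of the 15 cells was larger still. The deepest precursor, with 56929 UMIs, also lay among these 15 cells, which held 185714 UMIs in all.

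The 20 cells with *Rag1* alone held more light chain transcript. *Igkc*, the κ constant gene, was 2679 CPM in them against 738 in the cells with a surrogate light chain gene (log2 ratio of the latter over the former -1.86, -2.16 to -1.57), and the λ constant gene *Iglc2* was 494 against 0. *Ighm*, the µ heavy chain gene, was 2644 against 1142 CPM (-1.21). *Ly6d*, which marks cells committed to the B lineage, was 1842 against 431 (-2.10), *Syk* 1463 against 485 (-1.59) and *Il7r* 864 against 280 (-1.63). Listed T cell genes lay the same way in 9 of 12, with *Cd3d* at 229 against 96.9 (-1.24) and *Trbc1* at 555 against 269 (-1.04), and their part in the *Il7r* value was not tested. *Vpreb3* differed less, at 2767 against 2041 (-0.44).

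Of the 12 immunoglobulin constant genes, 2 were higher in precursors than in mature cells and 9 lower. *Igkc* had 0, 8 and 58 UMIs in precursors and 0, 34.5 and 10700 in DKO-severe mature cells, whereas *Ighm* had 2, 14 and 53 against 0, 11 and 104. Summed over cells, there were 0.861 *Igkc* UMIs per *Ighm* UMI in precursors and 11.8 in mature cells, of whose *Igkc* UMIs 20.7% came from 1 cell; without the 7 mature cells in which immunoglobulin genes took 10% or more of all UMIs the value was 3.16. With 10 or more light chain UMIs required, 17 precursors were led by κ, 5 by λ and 13 (37.1%) had too few UMIs; of the mature cells 285 were led by κ, 49 by λ and 10 (2.91%) had too few. In the DKO-severe T reference, 361 of 6119 cells reached 10 light chain UMIs led by κ and 1 by λ, so this number of light chain UMIs was also reached outside the B lineage. In WT, 29 mature cells were led by κ and 10 by λ.

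The 9 DKO-severe cells with both kinds of transcript fell between the classes in *Cd74*, *Bank1* and *Vpreb3*. They had 1, 2 and 6 UMIs of *Ms4a1*, 0, 5 and 80 of *Cd74*, 0, 1 and 18 of *Bank1* and 2, 9 and 30 of *Vpreb3*. *Rag1* was found in 6 of them and *Vpreb1* in 3, with up to 17 UMIs. Their *Ighm* counts were 6, 21 and 51.

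Genes of early progenitors and of plasmacytoid dendritic cells each had 3 UMIs or fewer in the precursors. *Kit* had 3 UMIs in precursors, *Flt3* 2 and *Cd34* 0, against 1, 85 and 0 in mature cells. These counts come from 299176 UMIs of all genes in precursors and 3172467 in mature cells. In CPM *Kit* was thus higher in precursors and *Flt3* lower, and 0 of the 3 genes passed the filter on low counts. Of the plasmacytoid genes, *Siglech* and *Klk1* had 0 UMIs in both and *Cox6a2* 1 and 5 (3.34 against 1.58 CPM). Of the other lists, 1 of 7 myeloid genes, 0 of 5 erythroid genes and 1 of 12 T cell genes were higher in precursors. So were 0 of 8 germinal centre genes, 2 of 10 plasma cell genes, 2 of 7 marginal zone and B-1 genes and 0 of 5 age-associated B cell genes. The filter on low counts was passed by 0 myeloid, 0 erythroid and 0 age-associated genes. It was passed by 1 germinal centre gene, 1 marginal zone and B-1 gene, 5 plasma cell genes and 8 T cell genes. In the smaller pool of precursors a rare gene can read 0, so these counts do not show that the programmes were absent. The plasma cell genes that were higher included *Irf4* (207 against 101 CPM, 1.03), a factor that also acts in precursors, while *Jchain*, the joining chain of secreted antibody, was 10.0 against 1117 (-6.80).

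Genes of follicular B cells were widely found in the mature cells. *Fcer2a* was found in 148 of 344 DKO-severe mature cells (43.0%) and 25 of 39 WT mature cells (64.1%), and in 0.294% and 0.376% of the T reference cells. *Cr2* was found in 157 of 344 (45.6%) and 22 of 39 (56.4%), and in 0.752% and 1.04% of the T reference. Median depth was 6698 UMIs in the DKO-severe and 9355 in the WT mature cells, and at 3400 UMIs per cell the *Fcer2a* shares, over 3 random draws, were 29.2 to 30.7% in DKO-severe and 33.3 to 50% in WT, with overlapping intervals in each draw.

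Genes of germinal centre B cells were found in a minority of the mature cells. *Rgs13*, which damps chemokine signals, was found in 6.69% of DKO-severe and 12.8% of WT mature cells, at 39.7 against 115 CPM, and in 0.0163% and 0.0869% of the T reference cells. *Mybl1*, a transcription factor of germinal centre cells, was found in 8.14% and 10.3%, at 41.0 against 78.5 CPM, and in 1.45% and 0.434% of the T reference. *Bcl6*, the repressor that maintains the germinal centre programme, was at 88.3 against 111 CPM (log2 ratio of DKO-severe over WT -0.33, -0.77 to 0.14), and follicular helper T cells also make it. *S1pr2*, the receptor that holds cells in the follicle, was found in 8.43% of DKO-severe mature cells but also in 6.99% of the T reference cells. Its share in DKO-severe thus cannot be told from that of the T reference. In WT it was found in 10.3% of mature cells against 1.43% of the T reference cells. Of the 8 listed germinal centre genes, 1 was higher in DKO-severe than in WT mature cells and 7 were lower. In this comparison, which rests on 39 WT cells, 0 of the 8 passed the filter on low counts.

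**Figure D3:**
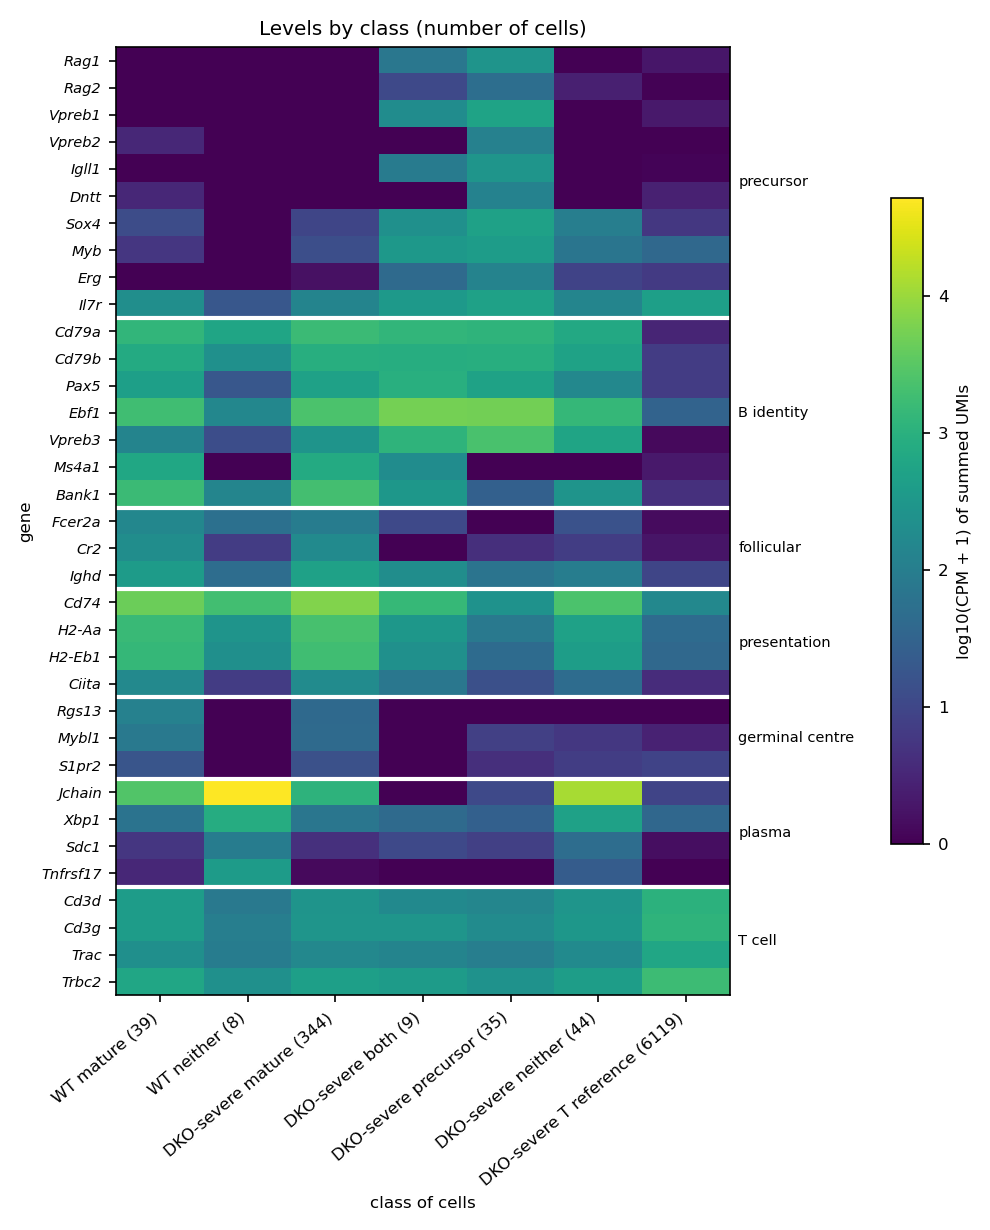
The heat map gives log10(CPM + 1) of 35 genes (rows) in 7 groups of cells (columns), from dark for low to bright for high, with the number of cells under each group. *Bank1* and *Cd74* fill the mature columns and are low in the 35 precursors, *Rag1* to *Sox4* fill the precursor column, and *Jchain* and *Xbp1* the cells with neither kind of transcript.

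Cells with neither *Ms4a1* nor a precursor gene were in part rich in antibody transcripts and in part not. In the 44 DKO-severe cells all 10 plasma cell genes were higher than in mature cells, a comparison chosen after seeing the data. Of these, 7 passed the filter and 3 were 4-fold or more higher, against 1.12% of 3119 genes, whose median log2 ratio was -0.35. *Jchain* had 0, 0 and 1761 UMIs, with 17 positive cells, and stood at 12573 against 1117 CPM (log2 ratio 3.49). *Xbp1*, the factor of the secretory programme, was 487 against 71.2 (2.77, 2.52 to 3.03), *Mzb1*, a chaperone of antibody assembly, 2225 against 814 (1.45), and *Sdc1*, the plasma cell marker CD138, 47.3 against 3.47 (3.77). All 13 antigen presentation genes were lower, 6 of the 9 that passed by 4-fold or more against 1.19% of all genes, with *Cd74* at 2425 against 6736 (-1.47). The ranking placed the secretory pathway genes *Fkbp11* (233 against 30.9, 2.92) and *Creb3l2* (2.55) near the top, whereas 96.3% and 95.3% of the UMIs of *Ccl4* and *Gzmb*, also near the top, came from 1 cell.

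Immunoglobulin genes took 10% or more of all UMIs in 23 DKO-severe B lineage cells (5.32%), 16 of them in the group with neither transcript and 7 mature, and in 7 WT cells (14.6%), 6 with neither transcript and 1 mature. This limit was set after seeing the data, and 0.0163% of the DKO-severe and 0.029% of the WT T reference cells passed it. These antibody-rich cells were deep, with medians of 21270 UMIs in DKO-severe and 27907 in WT. *Pax5* had 0 UMIs in both groups, 65.2% of the DKO-severe cells held *Sdc1*, and *Xbp1* stood at 799 CPM in DKO-severe and 824 in WT. *Jchain* was 21471 CPM in DKO-severe and 52046 in WT, and *Tnfrsf17*, the plasma cell survival receptor BCMA, was 27.5 and 340.

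The other 28 DKO-severe cells with neither transcript had a median of 4434 UMIs and a mixed content. They held *Vpreb3* at 1256 CPM, *Ebf1* at 3173, *Pax5* at 378 and *Ighm* at 1717. *Sox4* was at 246 CPM, with 42.9% of the cells positive, and *Myb* at 144. *Cd74* was at 2954 and *Bank1* at 571. For *Vpreb3*, *Sox4*, *Myb*, *Cd74* and *Bank1* these values lie between those of the precursors and the mature cells.

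Most B lineage cells were IgM or IgD cells. With a cell called switched when it had 3 or more heavy chain UMIs and more from *Ighg1*, *Ighg2b*, *Ighg2c*, *Ighg3*, *Igha* and *Ighe* than from *Ighm* and *Ighd*, 43 of 429 called DKO-severe cells were switched (10.0%, 7.35 to 13.3) and 5 of 47 in WT (10.6%, 3.55 to 23.1). In the T reference, 11 DKO-severe cells were called switched and 1845 IgM or IgD (0.593% switched), and 5 and 1214 in WT (0.41%), so heavy chain calls at this level also arose outside B cells. By class, 31 of 343 DKO-severe mature cells were switched (9.04%, 6.22 to 12.6) and 1 of 38 in WT (2.63%, 0.0666 to 13.8), with overlapping intervals. Among cells with neither transcript the counts were 12 of 43 (27.9%) and 4 of 8 (50%). None of 34 called precursors was switched, which allows a share of up to 8.82%. Of the antibody-rich cells, 19 of 23 in DKO-severe (82.6%, 61.2 to 95) and 4 of 7 in WT (57.1%, 18.4 to 90.1) were switched.

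The switched cells of the DKO-severe mouse were mainly IgG cells. *Ighg2b* led in 20 cells (17 mature and 3 with neither transcript), *Ighg1* in 17 (12 and 5), *Ighg2c* in 3, *Igha* in 2 and *Ighg3* in 1. In WT, *Igha* led in 3 cells, *Ighg1* in 1 and *Ighg2b* in 1. *Igha* was at 40834 CPM in the 7 WT antibody-rich cells, and *Ighg1* and *Ighg2b* were at 24530 and 24654 CPM in the 23 of the DKO-severe mouse. *Ighe*, the IgE gene, had 14 UMIs in 1 WT cell and 1 UMI in the DKO-severe cells.

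**Figure D4:**
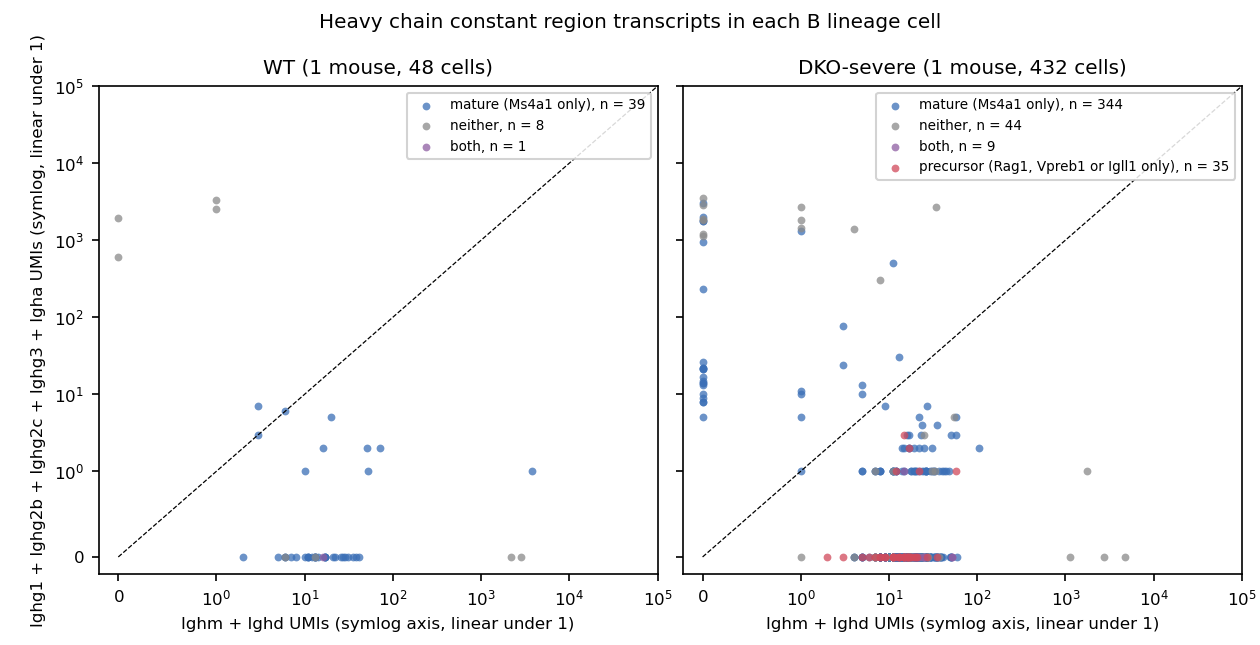
Each point is 1 B lineage cell of the WT or the DKO-severe mouse, with the UMIs of *Ighm* and *Ighd* on the x axis and of *Ighg1*, *Ighg2b*, *Ighg2c*, *Ighg3* and *Igha* on the y axis, linear near 0 and logarithmic above; points over the diagonal have more switched than unswitched UMIs. The 43 DKO-severe switched cells lie over the line and the precursors all lie at or near 0 on the y axis.

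T cell transcripts were found in many of the B lineage cells. At least 1 UMI of *Cd3d*, *Cd3e* or *Cd3g*, chains of the T cell receptor complex, was found in 224 of 432 DKO-severe cells (51.9%, 47.0 to 56.7) and 34 of 48 WT cells (70.8%, 55.9 to 83.0). The share with 2 or more was 31.0% (134 cells) in DKO-severe and 66.7% (32 cells) in WT, and the highest counts were 162 and 54 UMIs. By class the DKO-severe share with at least 1 UMI was 50.9% in mature cells, 45.7% in precursors, 44.4% in cells with both kinds of transcript and 65.9% in those with neither. At 3400 UMIs per cell the shares over 3 draws were 39.6 to 40.6% in DKO-severe and 68.2 to 70.5% in WT. A myeloid reference, set after seeing the data, held the cells outside the B lineage with 20 or more UMIs of *Lyz2*, *S100a8*, *S100a9* and *Csf1r*. A *Cd3* UMI was found in 75.2% of its 311 DKO-severe and 91.3% of its 23 WT cells, at median depths of 17067 and 14853 UMIs. At 3400 UMIs per cell the shares were 60.1 to 63.1% and 81.0 to 85.7%. Of these cells, 183 in DKO-severe and 18 in WT held 2 or more *Cd3* UMIs and so also belonged to the T reference. The shares are thus not a *Cd3* background of cells other than T cells.

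The DKO-severe B lineage cells with 2 or more *Cd3* UMIs were deeper than those with 0, with medians of 11708 against 5290 UMIs (14215 against 4604 in WT). A UMI of *Cd4* or a *Cd8* gene was found in 61.9% against 9.62% of them, and their median number of *Trac* and *Trbc* UMIs was 16 against 0. Scrublet, a caller of barcodes that hold 2 cells, set a threshold that called 0 cells in either mouse and so gave no doublet calls. Among the highest 6% of its scores were 79 of the 432 DKO-severe B lineage cells (18.3%), all 79 with 2 or more *Cd3* UMIs, and 1 of the 48 WT cells (2.08%). Whether a barcode held a B cell and a T cell, or a B cell with free T cell RNA, was not tested.

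**Figure D5:**
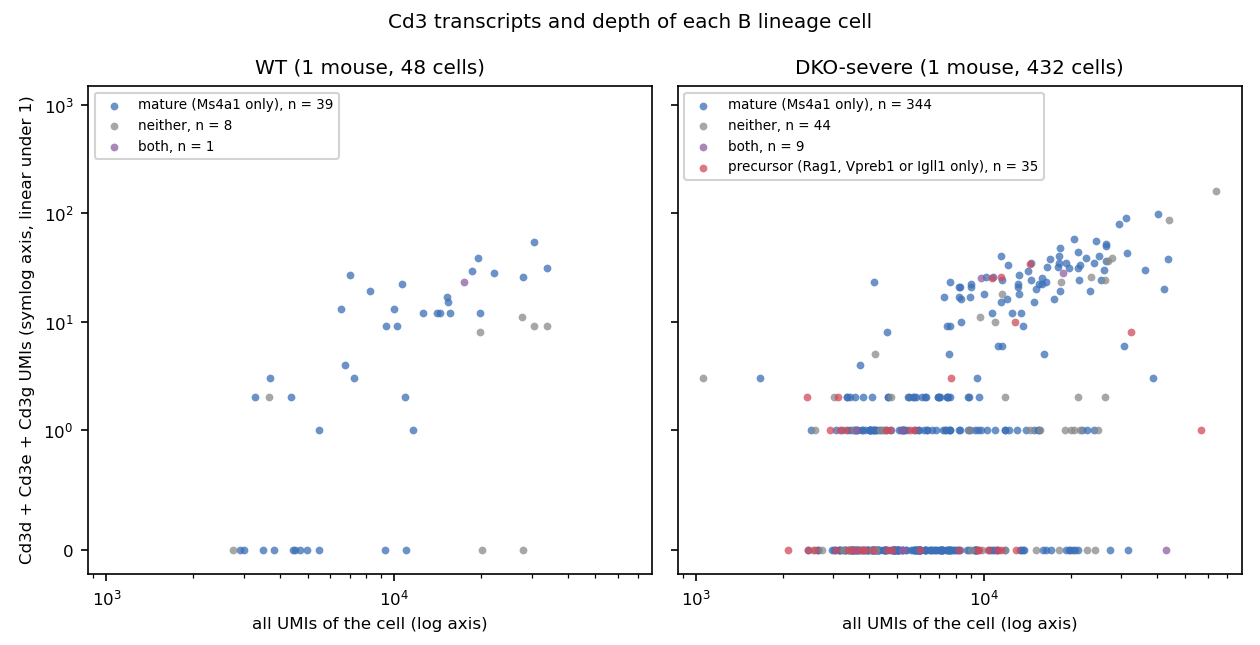
Each point is 1 B lineage cell of the WT or the DKO-severe mouse, with all its UMIs on the x axis (logarithmic) and the summed UMIs of *Cd3d*, *Cd3e* and *Cd3g* on the y axis (linear near 0 and logarithmic above), coloured by class. Cells with many *Cd3* UMIs lie at greater depth; in DKO-severe the medians were 11708 UMIs with 2 or more and 5290 with 0.

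The mature DKO-severe cells with 2 or more *Cd3* UMIs (107 cells, median 11585 UMIs) were set against the 169 with 0 (median 5671), again after seeing the data. All 15 B cell identity genes were lower in them, with *Cd79a* at 1080 against 2095 CPM (log2 ratio -0.96), *Bank1* at 1340 against 2805 (-1.07) and *Cd74* at 4495 against 8665 (-0.95), and none of the 15 was 4-fold lower, against 0.176% of 3400 genes. All 12 T cell genes were higher, the *Cd3* genes by choice. *Trac* was 310 against 10.4 CPM (4.90) and *Trbc2* 884 against 50.3 (4.13). Of the T cell genes, 9 of the 9 that passed the filter were 4-fold or more higher, against 2.5% of all genes. The *Cd3* genes on this list chose the cells, and a gene could pass the filter through the *Cd3*-positive cells alone. The count is therefore a description of the split. *Tcf7* (5.33) and *Icos* (5.75), both T cell genes, were among the highest of all. *Lyz2*, a myeloid gene, was 130 against 13.9 (3.23).

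Few genes were past 4-fold between the mature cells of the 2 mice. Of 1688 genes, 0.415% were 4-fold or more higher in DKO-severe and 0.296% lower. No B cell identity gene was past 4-fold, and all 15 were higher in DKO-severe, with *Cd79a* at a log2 ratio of 0.35, *Vpreb3* at 1.07 and *Cd72*, an inhibitory receptor, at 1.38. The 12 T cell genes were all lower in DKO-severe, none 4-fold. Without the cells with 2 or more *Cd3* UMIs, which left 237 DKO-severe cells and 13 WT cells with 74710 UMIs, *Cd79a* was -0.33 and *Bank1* -0.53, so the direction of these genes turned when those cells were left out. *Vpreb3* (0.64) and *Cd72* (0.40) kept theirs.

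*Cntn5* (263 against 6.93 CPM, 5.24), *Slpi* (2248 against 73.9, 4.93; 6.65 without the cells with 2 or more *Cd3* UMIs) and *Ralyl* (4.59) had the highest ratios. Of the DKO-severe cells 11.9% held *Cntn5* and 20.3% held *Slpi*, with 38.3% of the *Slpi* UMIs in 1 cell, and *Ralyl* was at -0.28 without the cells with 2 or more *Cd3* UMIs. Without those cells *Cntn5* fell to 23.6 CPM in DKO-severe, with 0 in WT, so no ratio could be given. *Zeb2*, a transcription factor, was 480 against 129 CPM (1.89; 2.36 without those cells), *Hsp90b1* and *Manf*, chaperones of the endoplasmic reticulum, 1.89 and 1.34 (3.41 and 1.85), *Tsc22d3* 1.48 (1.42) and *Cd38* 1.61 (0.68). The lowest ratios were those of the T cell genes *Lef1* (94.6 against 584, -2.63), *Cd226*, *Themis*, *Bcl11b* and *Tcf7* (-1.67), together with *Gm2682*, *Ppm1h*, *Fgf13* and *Tnik*. *Fcer2a* was 92.7 against 148 CPM (-0.67; -1.57 without those cells), and the 9 cell cycle genes were higher in CPM in DKO-severe on few WT UMIs. The 1 of them that passed the filter, *Pcna*, was 119 against 92.4 CPM (0.37, -0.10 to 0.88), *Top2a* had 13 WT UMIs, and the shares of cells with a *Mki67* UMI were 12.8% in DKO-severe and 15.4% in WT.

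Antibody transcripts had the largest ratios between the mice among the listed genes. *Ighg1* had 5180 UMIs in DKO-severe mature cells and 5 in WT (log2 ratio 7.14), and *Ighg2b* 6842 and 9 (6.70). Of these DKO-severe UMIs 1 cell held 38.6% and 44.0%, and the shares of cells with an *Ighg1* UMI were 10.5% in DKO-severe and 12.8% in WT. Without the antibody-rich cells of both mice, those with 10% or more immunoglobulin UMIs, an alternative chosen after seeing the data, the ratios were 3.55 for *Ighg1* (2.32 to 5.18) and 2.05 for *Ighg2b* (1.05 to 3.28). *Ighm* was 1377 against 10057 CPM (-2.87), but 1 WT cell held 87.2% of the WT UMIs, and without the cells with 2 or more *Cd3* UMIs the ratio was -0.03. Without the antibody-rich cells it was 0.06. *Jchain* had a ratio of -1.30, with 98.8% of the WT UMIs in 1 cell, of 5.56 without the cells with 2 or more *Cd3* UMIs and of 2.54 without the antibody-rich cells. *Igkc* was at 0.01, 2.63 and 0.59 in the same order.

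*Tet2* and *Tet3*, the genes floxed in the DKO-severe mouse, were read in the B lineage cells of both mice. *Tet2* was 85.5 CPM in WT and 58.6 in DKO-severe mature cells, and 53.5 in the precursors, against 51.4 and 64.8 in the WT and DKO-severe T reference cells. *Tet3* was 87.8 CPM in WT and 89.2 in DKO-severe mature cells and 96.9 in the precursors, against 105 and 94.3 in the T reference cells. Counting from the 3′ end does not show whether the floxed exons were removed.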

How the data were processed

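The deposited matrices hold UMI counts per gene and barcode, made by the authors with Cell Ranger (7.1.0 per the file headers) on mm10; Seurat is named in the submitters' processing notes, and filters beyond cell calling are not given in the sources used here. The files hold 7189 WT and 7161 DKO-severe barcodes, 32285 genes and 2 hashtag features, with 10000 cells loaded per the labels. The genotype of each matrix was taken from its name, and the leading hashtag was the one the labels give that genotype (median 1973 UMIs of hashtag 1 against 110 of the other in the WT matrix, 4726 of hashtag 2 against 36 in the DKO-severe matrix).

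The limits of 500 genes and 10% mitochondrial UMIs left 7007 WT and 6765 DKO-severe cells. The members and the gene lists were chosen with earlier results of these data known. For each class, UMIs were added over its cells, scaled to 1000000 UMIs (CPM) and compared as ratios with exact 95% conditional intervals; shares have exact Clopper-Pearson intervals, and a share of 0 allows up to 3 cells. Sums under 3 UMIs were counted as 3. The depth was 617056 UMIs in the 48 WT and 4204419 in the 432 DKO-severe B lineage cells. T reference cells were all non-members with 2 or more *Cd3d*, *Cd3e* and *Cd3g* UMIs. The comparisons of cells with neither transcript, of precursors with a surrogate light chain and of mature cells by *Cd3*, and the limits for antibody-rich cells, light chains, V segments and the myeloid reference, were set after seeing the data.

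Named genes were the 144 listed genes, *Tet2* and *Tet3* among them, the 10 highest and 10 lowest ratios of precursors over mature cells (100 or more UMIs and a mean of 50 CPM or more) and of DKO-severe over WT mature cells (30 UMIs, 100 CPM), and the 20 highest over the T reference (300 UMIs). The comparisons added later used the filter of the first, except that of precursors with a surrogate light chain (30 UMIs, 100 CPM). Immunoglobulin, T cell receptor, haemoglobin, mitochondrial, ribosomal protein, rule and sex-linked marker genes were left out of rankings. Some listed or ranked genes, and a comparison that rests on one of them, are not reported here. Doublets were scored but not removed, since Scrublet's own threshold called 0 cells. The alternatives were thinning to 3400 UMIs (3 random draws), other UMI limits for the classes, leaving out high Scrublet scores or cells with *Cd3* UMIs, a pseudocount of 5 CPM and CPM without immunoglobulin, haemoglobin, mitochondrial and ribosomal protein genes; leaving out antibody-rich cells was added later. A gene can pass a count filter through the class where it is high alone. The filter against the T reference counted the UMIs of the B lineage cells only. The scripts were checked on simulated data. Python 3.11.15, numpy 2.4.6, scipy 1.17.1, pandas 2.3.3, scanpy 1.11.5 and matplotlib 3.10.9 were used.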

Additional observations from a re-analysis of the deposited data

How the results depend on the processing

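No paired analysis was possible because there was 1 mouse per genotype. The mature and precursor shares in this paragraph count every B lineage cell with *Ms4a1* or with a precursor gene, so cells with both enter each. Counted so with all UMIs, mature shares were 83.3% (WT) and 81.7% (DKO-severe), and precursor shares 2.08% and 10.2%. Thinning to 3400 UMIs gave, in the first of 3 random draws, B lineage shares of 0.394% (WT; 0.333 to 0.469 over the draws) and 4.83% (DKO-severe; 4.67 to 4.86), mature shares of 63.6% (63.6 to 75.0) and 74.6% (the same in each), a WT precursor share of 0 and a DKO-severe *Cd3* share of 39.6%. Leaving out the highest 6% of Scrublet scores gave a DKO-severe B lineage share of 5.54% and *Cd3* share of 41.1%. Without members with 2 or more *Cd3* UMIs, an alternative partly added after seeing the data, the B lineage shares were 0.228% (WT) and 4.41% (DKO-severe) and the WT precursor share 0. Requiring 2 precursor UMIs gave precursor shares of 0 (WT) and 7.41%, 2 *Ms4a1* UMIs a DKO-severe mature share of 75.2%, and 3 *Cd3* UMIs a DKO-severe share of 23.1%. With CPM without immunoglobulin, haemoglobin, mitochondrial and ribosomal protein genes, 0 of 50 listed genes were past 4-fold between DKO-severe and WT mature cells, against 3 otherwise, the antibody genes being left out by construction; between precursors and mature cells 28 of 75 were past 4-fold, and 20 of 66 with that CPM and 35 of 75 without members with 2 or more *Cd3* UMIs.

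Without members with 2 or more *Cd3* UMIs, these log2 ratios, of those whose counting interval lay off 0 with all members, took the opposite sign, and the cause was not tested. Between precursors and mature cells they were *Blnk* -0.17, *Cd3d* 0.21, *Cd3e* 0.60, *Cd3g* 0.01, *Trac* 0.14, *Trbc1* -0.61 and *Trbc2* 1.08. Between DKO-severe and WT mature cells they were *Cd79a* -0.33, *Cd79b* -0.41, *Bank1* -0.53, *Ebf1* -0.19, *Fcmr* -0.80, *Ly6d* -0.02, *Ighd* -0.99, *Jchain* 5.56, *Slc3a2* 0.10, *Txndc5* 0.19, *H2-Aa* -0.43, *H2-Ab1* -0.31, *H2-Eb1* -0.36, *H2-DMa* -0.53, *H2-DMb2* -0.32, *H2-Oa* -0.39, *Cd74* -0.06 and *Blnk* -0.16. In the first comparison 49 other genes stayed within the counting interval of their ratio and 17 left it, among them *Pax5* (-0.25) and *Ly6d* (-0.18), both near 0 with all members; in the second, 7 stayed and 29 left it, among them *Pax5* (0.13 with all members, -0.63 without). Without antibody-rich cells, an alternative added after seeing the data, the *Ighm* and *Jchain* ratios between the mice took the opposite sign (0.06 and 2.54). With the pseudocount or the other CPM, no ratio whose interval lay off 0 took the opposite sign. The 48 WT cells, 13 of them mature with under 2 *Cd3* UMIs, limit every comparison between the mice.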

Other observations

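Variable segments were read in the cells with many antibody transcripts, with a cell given a leading segment when its family had 5 or more UMIs and 1 segment held 80% of them. In the DKO-severe cells with neither *Ms4a1* nor a precursor gene, 15 cells had a leading *Ighv* segment, of 12 distinct segments; *Ighv14-4* led in 3 cells and *Ighv1-58* in 2. Of the DKO-severe mature cells 8 had one, of 7 distinct segments, with *Ighv14-4* in 2 cells. The WT cells with neither transcript had 5 such cells with 5 distinct segments, and no precursor had one. Segments of one family are similar in sequence, and 3′ reads can be split between them.

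*Slpi*, which encodes a secreted protease inhibitor, was found in 70 of 344 DKO-severe mature cells (20.3%), with a highest count of 2732 UMIs in 1 cell.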
